A study of Mus musculus with 128 samples.

Results

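Hepatocytes of mouse fetuses at embryonic day E17.5 were separated here into cycling and non-cycling cells and compared gene by gene. Cells were chosen by their own reads of Mki67, a protein that coats chromosomes in proliferating cells, and Top2a, the topoisomerase that untangles replicated DNA. A cell with at least 10 reads of both genes was called cycling, and a cell with fewer than 10 of both was called non-cycling. Of the 261 E17.5 wild-type cells, 33 were cycling (15 in replicate 1 and 18 in replicate 2) and 178 were non-cycling (84 and 94). The other 50 cells, with 10 reads of 1 gene and not of the other, were left out of the comparison. The whole table holds 4264 cells, so the 211 classed cells are a small section of it.

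The libraries came from the B6C3F1 WT fetuses of a study of PAR3 in liver development. Both are labelled hepatocyte, strain C57BL/6XC3H, genotype WT, age E17.5 and treatment none, and were made with Smart-seq3xpress, a plate-based single-cell RNA-seq method. The cycling and non-cycling cells of a pair therefore share strain, age, library and genotype. The labels do not say whether the replicates are separate fetuses, so p-values measure the spread between these libraries, which may be technical. The extraction text describes sorting of early gut endoderm and not of fetal liver, and no cell type is set by it here. For a check in other mice, 8 further E17.5 libraries of strain C57BL/6 were used, labelled Foxa3Cre Pard3WT, Foxa3Cre YapWT, Foxa3Cre Pard3WT YapWT and AlfpCre Pard3WT. These lines carry a Cre transgene (Foxa3-Cre, active in endoderm, or Alfp-Cre, active in the liver lineage), and their genotype labels list no floxed allele.

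A dividing cell switches on E2F target genes as it leaves G1 and fires replication origins in S phase. It then raises a later set of genes for mitosis that the MuvB and FoxM1 factors drive. Fetal hepatocytes divide while they already secrete plasma proteins, and the liver of late gestation is losing its proliferating cells while it acquires metabolic functions. Alb, Afp and the apolipoproteins mark the hepatocyte lineage at this age.

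The cells carried the hepatocyte label with 1 clear exception. The 8 hepatocyte markers (Alb, Afp, Ttr, Apoa1, Trf, Hnf4a, Serpina1b and Apoa2) held a median of 15.0% of reads in cycling cells of replicate 1, against 17.9% in non-cycling cells. Alb alone had medians of 44893 and 40454 CPM of plain totals in cycling cells of replicates 1 and 2, against 54314 and 54197 CPM in non-cycling cells. A single non-cycling cell of replicate 2 had 1.84% of its 333585 reads in these markers, while the next lowest of the other 260 cells had 10.8%. In that cell Ins1 and Ins2, the insulin genes, held 51.5% of reads. It stayed in the comparison as deposited, and each count that leads below is also given without it. Cells with reads for at least 50% of the markers of another lineage were 0 of 33 cycling cells and 3 of 178 non-cycling cells, all 3 by erythroid genes.

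Depth was similar in both classes. Cycling cells had medians of 707969 and 626370 reads in replicates 1 and 2, against 621044 and 588756 in non-cycling cells, and the summed reads were 9643777 and 13536462 for cycling cells, against 52194160 and 56760752 for non-cycling cells. Cycling cells had more detected genes, with medians of 7642 and 7758, against 6628 and 6600.5 in non-cycling cells. Thinned to 200000 reads a cell, the medians were 6888 and 7028 in cycling cells, against 5956 and 6009 in non-cycling cells. The part of this difference in the results below was not tested.

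The genes that chose the cells are given as a description only. Mki67 had 189 and 245 CPM (counts scaled to the TMM-adjusted total of each sum) in cycling cells of replicates 1 and 2, against 1.43 and 2.03 CPM in non-cycling cells. Top2a had 265 and 347 CPM in cycling cells, against 1.24 and 1.44 CPM in non-cycling cells. The cycling cell nearest the threshold had 10 Mki67 and 81 Top2a reads in replicate 1, and 22 and 38 in replicate 2. The nearest non-cycling cell had 8 Mki67 and 0 Top2a reads in replicate 1, and 8 and 4 in replicate 2. No read of either gene was seen in 45 of 84 and 47 of 94 non-cycling cells.

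Reads were summed per library and class, since cells of 1 library are not replicates, and the 4 sums were fitted with edgeR's quasi-likelihood test with the library as a block. Of 13064 genes tested, 549 were higher in cycling cells (4.20%) and 334 were lower (2.56%) at a Benjamini-Hochberg adjusted p below 0.05. Counts of called list members below are to be read against these shares. Genes of the cell cycle are co-expressed with the pair that chose the cells, so their rise follows in part from the selection. Without the insulin-rich cell 534 genes were higher and 309 lower, and every one of these was among the 549 and the 334. Scaling by library totals alone, in place of TMM, moved all genes up by 0.257 on the log2 scale and gave 863 higher and 129 lower. All log2 fold changes below are relative to the TMM scale, on which the median of all genes tested was −0.08. Both cycling sums lay above both non-cycling sums in 22.9% of all genes tested and below them in 28.1%. A lack of overlap between groups, where stated below, is to be read against these shares.

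**Figure D1:**
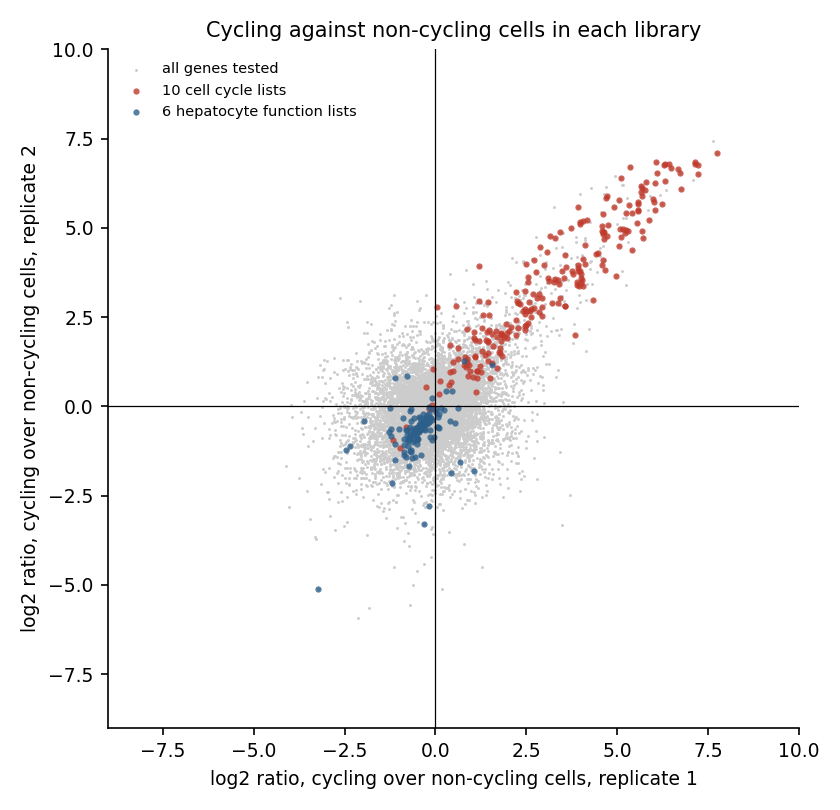
Log2 ratio of cycling over non-cycling cells for each gene tested, replicate 1 on the x axis and replicate 2 on the y axis, with the 10 cell cycle lists in red and the 6 hepatocyte function lists in blue. Cell cycle genes spread along the diagonal in the upper right, and most hepatocyte genes sit below 0 in both replicates.

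Members of the cell cycle lists made up 32.8% of the genes called higher. Called genes in no list were not assessed for a role in the cell cycle. Of 223 tested members of 10 cell cycle lists, 180 were higher (80.7%, against 4.20% of all genes) and 0 were lower, and their median log2 fold change was 3.77. The count was 179 without the insulin-rich cell and between 166 and 188 when the thresholds, scaling, tool or filter changed. It was 117 when all E17.5 libraries shared 1 fit. With replicate 1 or replicate 2 left out, which leaves a single pair and takes the spread from the control lines, it was 73 and 70. The lists of mitosis had the largest medians, 6.14 for mitotic kinases and cyclins, 6.75 for spindle and kinetochore genes and 7.08 for cytokinesis genes.

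Of 17 tested genes of G1 entry, 8 were higher and 0 lower, with a median log2 fold change of 1.13. Ccne1, the cyclin E that starts S phase, had 932 and 1475 reads in the smaller cycling sums, against 385 and 592 reads in the non-cycling sums (log2 fold change 3.29 ± 0.21 SE, edgeR adjusted p = 3.04e-05). The atypical E2F repressors went further. E2f7 had 36.9 and 27.8 CPM in cycling cells, against 0.0827 and 0.039 CPM in non-cycling cells, and E2f8 had 54.6 and 70.5 CPM, against 1.1 and 0.351 CPM. Their log2 fold changes were 8.98 ± 0.49 and 6.51 ± 0.48. For all 3 genes both cycling levels lay above both non-cycling levels, as held for 22.9% of all genes tested. The D cyclins, named here after their values were seen, did not pass the test. Ccnd1 had 19.3 and 29.1 CPM in cycling cells, against 17.8 and 17.4 CPM in non-cycling cells (0.43 ± 0.29, adjusted p = 0.516), and Ccnd3 had a log2 fold change of −0.03 ± 0.21.

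Origin licensing and firing factors rose together, 17 of 19 tested, with a median log2 fold change of 2.35. Gins2 and Gins1, subunits of the complex that activates the replicative helicase, and Gmnn, the geminin that blocks relicensing, had the smallest adjusted p. Gins2 had 103 and 94.3 CPM in cycling cells, against 17.8 and 18.9 CPM in non-cycling cells (2.42 ± 0.18, adjusted p = 8.27e-05). Gmnn had 78.0 and 96.6 CPM in cycling cells, against 16.3 and 17.8 CPM in non-cycling cells (2.35 ± 0.19). Gins1 had 47.9 and 53.5 CPM in cycling cells, against 6.53 and 6.05 CPM in non-cycling cells (3.01 ± 0.26). Non-cycling cells kept readable levels of all 3, and the groups did not overlap.

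At the replication fork 26 of 31 tested genes were higher, with a median of 2.69. Rrm2, the small subunit of ribonucleotide reductase that makes deoxynucleotides, had 296 and 377 CPM in cycling cells, against 5.23 and 4.95 CPM in non-cycling cells (6.04 ± 0.16, adjusted p = 5.43e-07). Pcna, the sliding clamp of DNA polymerase, had 296 and 292 CPM in cycling cells, against 45.0 and 42.8 CPM in non-cycling cells (2.75 ± 0.12). Tyms, the thymidylate synthase, had 238 and 243 CPM in cycling cells, against 31.0 and 35.1 CPM in non-cycling cells (2.87 ± 0.13). In each the cycling sums were the higher pair, and the fold change of Rrm2 was far above that of Pcna or Tyms.

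Of 31 listed replication-dependent histone genes 25 passed the filter on low counts, and 12 of those were higher, with a median of 4.22. These genes have near-identical copies, among which the counting could split reads, so single members are uncertain. Hist1h4d had 106 and 92.9 CPM in cycling cells, against 5.93 and 4.8 CPM in non-cycling cells (4.22 ± 0.20, adjusted p = 6.57e-06). Hist1h2ao had 30.7 and 55.5 CPM in cycling cells, against 0.434 and 0.527 CPM in non-cycling cells (6.44 ± 0.37). Hist1h2bc had 542 and 593 CPM in cycling cells and a high level of 221 and 201 CPM in non-cycling cells (1.43 ± 0.10). In 1 gene, Hist1h2an, no read was seen in non-cycling cells. Its 16 reads in cycling cells make it at least 20.9-fold higher against a floor of 3 counts over the group, and the list median was 4.22 with the gene at that bound.

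Repair and fork checkpoint genes were higher in 16 of 24 cases, with a median of 3.25. Bard1, the partner of Brca1, had 43.3 and 53.1 CPM in cycling cells, against 0.165 and 0.195 CPM in non-cycling cells (8.03 ± 0.37). Brca1 itself had 19.4 and 35.4 CPM in cycling cells, against 0.434 and 1.37 CPM in non-cycling cells (5.04 ± 0.42). Neil3, a glycosylase of replicating cells and 1 of the 8 largest rises, had 23.4 and 36.5 CPM in cycling cells, against 0.165 and 0 CPM in non-cycling cells (8.47 ± 0.83). All cycling sums of these genes were the higher ones. Chek1, another member, lost its call without the insulin-rich cell.

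Kinases and cyclins of mitotic entry were higher in 20 of 22 cases. Cdk1, the mitotic kinase, had 356 and 361 CPM in cycling cells, against 22.9 and 22.6 CPM in non-cycling cells (3.98 ± 0.12, adjusted p = 9.67e-07). Ccnb1, its cyclin partner, had 147 and 163 CPM in cycling cells, against 0.538 and 0.975 CPM in non-cycling cells (7.69 ± 0.25). Aurka, the kinase of centrosome maturation, had 249 and 244 CPM in cycling cells, against 6.72 and 8.66 CPM in non-cycling cells (5.01 ± 0.16). In all 3 both cycling sums were the higher ones, as held for 22.9% of all genes tested, and the fold change was largest for Ccnb1. The largest rise by the fitted fold was Cdc25c, the phosphatase that activates Cdk1, with 64.9 and 38.7 CPM in cycling cells, against 0.103 and 0.078 CPM in non-cycling cells (9.08 ± 0.39). Bub1, a spindle checkpoint kinase, had 55.3 and 59.8 CPM in cycling cells, against 0.207 and 0.0585 CPM in non-cycling cells (8.75 ± 0.46). Aurkb, the kinase of the chromosomal passenger complex, had 50.8 and 74.3 CPM in cycling cells, against 0.145 and 0.176 CPM in non-cycling cells (8.57 ± 0.34).

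All 38 tested spindle and kinetochore genes were higher, and so were all 13 cytokinesis genes. Cenpf, a kinetochore protein, had 103 and 94.6 CPM in cycling cells, against 0.476 and 0.527 CPM in non-cycling cells (7.61 ± 0.26, adjusted p = 1.27e-06). Nusap1, a spindle protein, had 79.6 and 96.8 CPM in cycling cells, against 0.393 and 0.449 CPM in non-cycling cells (7.70 ± 0.27). Spc24, of the Ndc80 complex, had 312 and 308 CPM in cycling cells, against 27.5 and 21.6 CPM in non-cycling cells (3.67 ± 0.14). Nuf2 and Ska1, also of the outer kinetochore, had log2 fold changes of 8.69 ± 0.43 and 8.79 ± 0.48. Birc5, the survivin of the passenger complex, had 386 and 356 CPM in cycling cells, against 2.21 and 2.59 CPM in non-cycling cells (7.27 ± 0.16, adjusted p = 2.47e-07). Cdca3 had 327 and 360 CPM in cycling cells, against 1.03 and 2.15 CPM in non-cycling cells (7.79 ± 0.24), and Racgap1, a regulator of the contractile ring, had 96.5 and 90.0 CPM, against 0.455 and 0.41 CPM (7.74 ± 0.26). None of these genes had overlapping groups. Cep55, an abscission protein, had 354 reads in cycling cells and 3 in non-cycling cells, a ratio of 461 with a 95% counting interval of 157 to 2250. That interval takes reads as independent and pools them over cells. Cycling reads of Cep55 came from 9 of 15 and 11 of 18 cells, with 32.3% and 24.6% of them in 1 cell. Of the nonzero counts in the E17.5 wild-type cells 58.7% are even numbers, and it is not stated whether mates of a pair were counted separately. The interval may be too narrow for both reasons.

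The list for the anaphase promoting complex and spindle checkpoint also holds Cdkn3. Of the 15 genes of that list 12 were higher, with a median of 3.60. Ube2c, the ubiquitin-conjugating enzyme of that complex, had 274 and 333 CPM in cycling cells, against 3.51 and 3.08 CPM in non-cycling cells (6.52 ± 0.18, adjusted p = 5.43e-07). Cdc20, its activator, had 125 and 121 CPM in cycling cells, against 2.81 and 2.36 CPM in non-cycling cells (5.58 ± 0.20). Cdkn3, a phosphatase of cyclin-dependent kinases, had 204 and 217 CPM in cycling cells, against 17.1 and 17.7 CPM in non-cycling cells (3.60 ± 0.14). The cycling sums were the higher pair for each. The list of condensin and other chromatin genes also holds Stmn1 and Tubb5, which are genes of microtubules. Of the 21 genes of that list 20 were higher, with a median of 2.63. Stmn1, a regulator of microtubule stability, had 558 and 547 CPM in cycling cells, against 22.2 and 18.6 CPM in non-cycling cells (4.76 ± 0.12, adjusted p = 4.61e-07). Hmgb2, a chromatin protein, had a log2 fold change of 4.10 ± 0.13, and Tubb5, a tubulin, one of 2.63 ± 0.09.

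Promoters of mitotic genes and of replication genes are shown because the shares with the CHR core and with E2F letters differed between these sets. Sequences are those of RefSeq, build GRCm38.p6. Motifs were searched on both strands in the 300 bases from 250 before to 50 after each start. The CHR core (cell cycle genes homology region, TTTGAA) was in 48 of 85 promoters of the mitosis lists (56.5%) and in 17.9% of all 32851 promoters. A CCAAT box (CCAAT) was common in both sets, in 69.4% of the mitosis promoters, 55.1% of the licensing and fork promoters and 37.4% of all promoters. With the CHR core and a CCAAT box in the same window, the shares were 45.9% for the mitosis lists and 6.95% for all promoters. The share with both was 8.16% for the licensing and fork lists and 2.13% for the lists of secreted proteins and of complement and coagulation. An E2F letter string (TTTGGCGC or TTTCCCGC) was in 14 of 49 licensing and fork promoters (28.6%), 4.71% of the mitosis promoters and 1.56% of all promoters. RefSeq promoters were found for 75 of 86 mitosis genes, 41 of 50 licensing and fork genes and 41 of 52 secreted and coagulation genes. A match is a description of letters and not of a bound site.

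The 160 bases before the start are printed 5′ to 3′ on the strand of the gene, for 3 mitotic genes with the CHR core and the CCAAT box in capitals and for 2 helicase genes, chosen after their values were seen, with the E2F letters alone in capitals. The Mcm5 and Mcm6 windows also hold CCAAT boxes, left in lower case. Letters found on the other strand are printed as their reverse complement.
Cdk1: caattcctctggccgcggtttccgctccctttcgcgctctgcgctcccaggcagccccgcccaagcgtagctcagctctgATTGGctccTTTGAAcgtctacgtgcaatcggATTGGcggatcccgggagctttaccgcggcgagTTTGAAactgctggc
Ube2c: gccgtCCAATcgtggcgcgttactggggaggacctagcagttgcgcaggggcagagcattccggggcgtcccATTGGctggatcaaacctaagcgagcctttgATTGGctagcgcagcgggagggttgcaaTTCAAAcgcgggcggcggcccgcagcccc
Cdc20: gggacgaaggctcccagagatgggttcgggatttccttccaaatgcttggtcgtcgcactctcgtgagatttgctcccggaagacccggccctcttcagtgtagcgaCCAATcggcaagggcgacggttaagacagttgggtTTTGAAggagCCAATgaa
Mcm5: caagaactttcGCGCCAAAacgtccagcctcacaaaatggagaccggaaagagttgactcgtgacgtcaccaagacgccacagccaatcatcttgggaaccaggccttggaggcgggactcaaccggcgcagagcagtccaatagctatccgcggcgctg
Mcm6: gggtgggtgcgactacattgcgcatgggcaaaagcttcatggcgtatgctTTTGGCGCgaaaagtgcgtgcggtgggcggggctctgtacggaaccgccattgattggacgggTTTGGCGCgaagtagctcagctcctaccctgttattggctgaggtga

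These windows are chr10:69352913-69353072 on the minus strand for Cdk1, chr2:164769769-164769928 on the plus strand for Ube2c, chr4:118437344-118437503 on the minus strand for Cdc20, chr8:75109349-75109508 on the plus strand for Mcm5 and chr1:128359706-128359865 on the minus strand for Mcm6. In Cdk1 the CHR core lay 71 and 15 bases before the start and in Cdc20 18 bases before it. Mcm5 and Mcm6 are subunits of the replicative helicase. Mcm5 had 42.4 and 82.7 CPM in cycling cells, against 6.82 and 6.96 CPM in non-cycling cells (3.11 ± 0.29). Mcm6 had 268 and 272 CPM in cycling cells and still 125 and 104 CPM in non-cycling cells (1.24 ± 0.12).

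**Figure D2:**
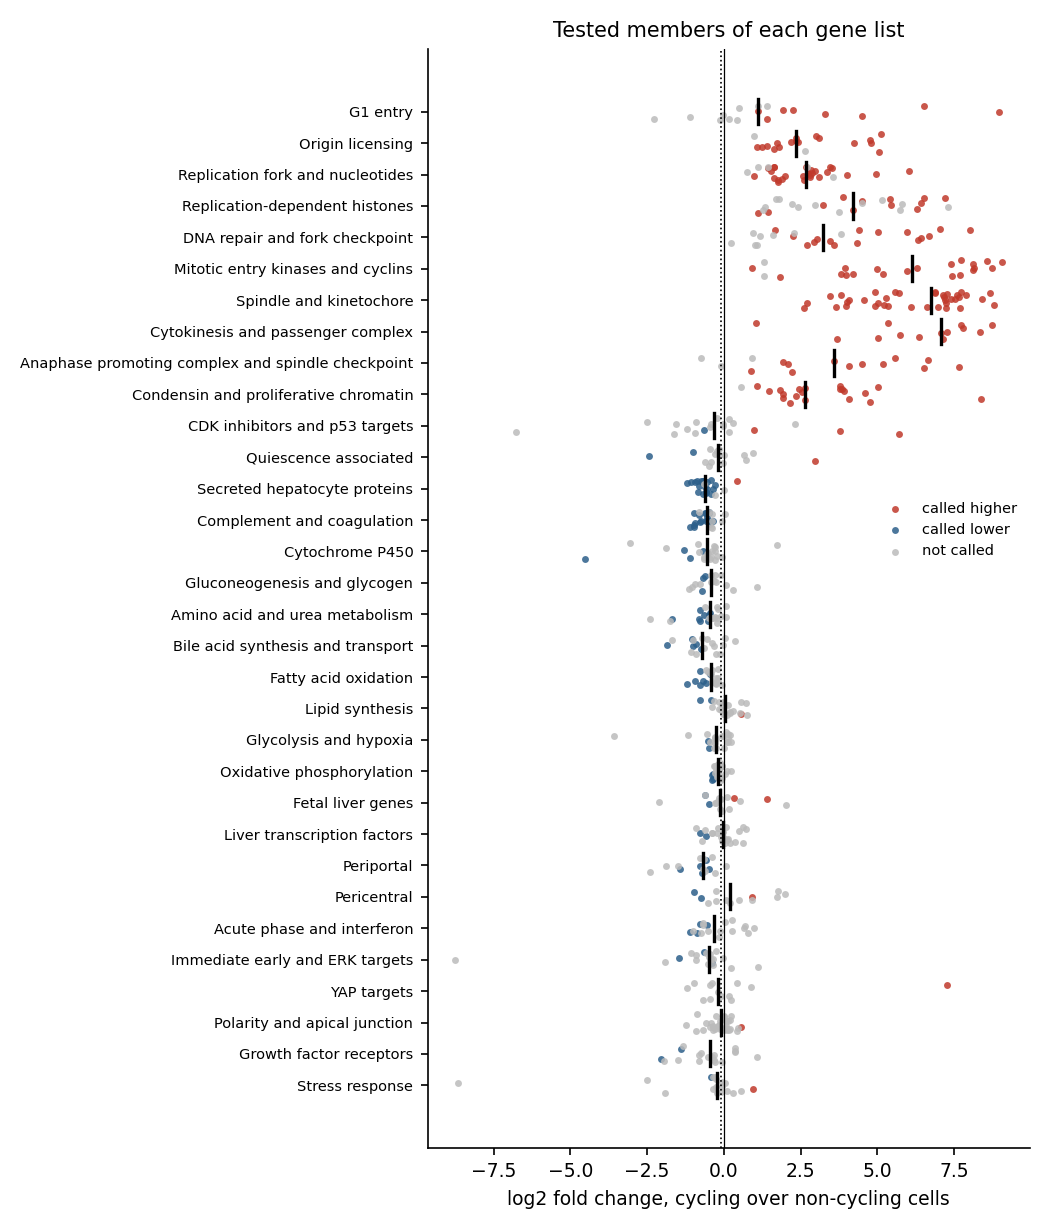
Log2 fold change (cycling over non-cycling cells, x axis) of each tested member of 32 gene lists, coloured by call, with a black bar at each list's median and a dotted line at the median of all genes tested. The 10 cell cycle lists at the top lie to the right, with medians from 1.13 to 7.08, and the lists below lie close to 0 or slightly to the left.

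Inhibitors of the cycle did not move as a group. Of 20 tested genes of the list of CDK inhibitors and p53 targets, 3 were higher and 1 lower, with a median of −0.31. The higher ones were all inhibitors. Cdkn2d had 51.1 and 45.3 CPM in cycling cells, against 3.6 and 3.43 CPM in non-cycling cells (3.77 ± 0.27, adjusted p = 7.52e-05). Cdkn2c had 16.8 and 21.4 CPM in cycling cells, against 0.248 and 0.507 CPM in non-cycling cells (5.70 ± 0.51), and Cdkn1b had 71.3 and 70.2 CPM, against 35.4 and 36.0 CPM (0.99 ± 0.17). These 3 genes had no overlap between groups. Cdkn1a, the main p53 target, had 48.1 and 58.5 CPM in cycling cells, against 52.5 and 71.6 CPM in non-cycling cells, with overlapping sums (−0.21 ± 0.17, adjusted p = 0.614). Cdkn1c, an imprinted inhibitor, had 769 and 609 CPM in cycling cells, against 626 and 602 CPM in non-cycling cells (0.16 ± 0.09, adjusted p = 0.448). Btg1, an antiproliferative gene, fell, with 132 and 113 CPM in cycling cells, against 192 and 193 CPM in non-cycling cells. Cdkn1a, Cdkn1c and Btg1 were named after their values were seen.

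Of 16 tested genes associated with quiescence, 1 was higher and 2 were lower (median −0.20, and 0.06 by library totals alone). Txnip, a thioredoxin-binding protein, had 135 and 85.3 CPM in cycling cells, against 214 and 216 CPM in non-cycling cells (log2 ratios of −0.66 and −1.34 in the replicates, adjusted p = 0.00769). Mxd4, a Max-binding repressor, had 2.13 and 1.85 CPM in cycling cells, against 10.4 and 11.1 CPM in non-cycling cells (−2.44 ± 0.52). Lin54, a DNA-binding subunit of the MuvB complex, went the other way, with 24.3 and 10.3 CPM in cycling cells, against 1.84 and 2.18 CPM in non-cycling cells (2.98 ± 0.52).

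Hepatocyte genes were lower in cycling cells, by amounts far smaller than those of the cell cycle. Of 130 tested members of 6 lists (secreted proteins, complement and coagulation, cytochrome P450, gluconeogenesis, amino acid metabolism and bile acids), 59 were lower (45.4%, against 2.56% of all genes) and 1 was higher, with a median log2 fold change of −0.56. Without the insulin-rich cell 58 were lower. By library totals alone 36 were lower and the median was −0.30. With replicate 1 or replicate 2 left out, 3 and 1 were lower, at medians of −0.67 and −0.51. The share of reads in hepatocyte markers, given above, is not a separate measure, since markers such as Alb are themselves secreted protein genes. The number of detected genes also moved with these genes, as given above, and its part was not tested.

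Secreted proteins fell in 21 of 25 cases, with a median of −0.61. Alb, serum albumin, had 39900 and 38300 CPM in cycling cells, against 57800 and 59500 CPM in non-cycling cells (−0.58 ± 0.06, adjusted p = 0.00051). Ahsg, the fetuin of fetal plasma, had 40500 and 33200 CPM in cycling cells, against 68900 and 72000 CPM in non-cycling cells (−0.94 ± 0.08). Apoh had 5030 and 4410 CPM in cycling cells, against 8520 and 8550 CPM in non-cycling cells (−0.86 ± 0.07). Both cycling sums lay below both non-cycling sums in each, as held for 28.1% of all genes tested. Serpina1a, an antitrypsin gene with near-identical copies that make it uncertain, had a log2 fold change of −0.85 ± 0.08. The exception was Serpina6, which binds corticosteroids in plasma and was singled out after its values were seen. It had 2190 and 1910 CPM in cycling cells, against 1590 and 1420 CPM in non-cycling cells (0.44 ± 0.07, adjusted p = 0.00706).

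Complement and coagulation genes fell in 18 of 26 cases and rose in 0, with a median of −0.55. Kng1, the kininogen, had 4400 and 4150 CPM in cycling cells, against 8080 and 8850 CPM in non-cycling cells (−0.99 ± 0.08, adjusted p = 9.24e-05). C4b, a complement component, had log2 ratios of −1.13 and −1.04 between cycling and non-cycling cells of replicates 1 and 2 (−1.09 ± 0.10). Fgb, a fibrinogen chain, had 11300 and 8550 CPM in cycling cells, against 18300 and 20200 CPM in non-cycling cells (−0.97 ± 0.11). The groups did not overlap for any of the 3. Hrg, a histidine-rich plasma protein among the 8 largest falls, had 11.7 and 14.8 CPM in cycling cells, against 78.4 and 97.5 CPM in non-cycling cells (−2.73 ± 0.19).

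Metabolic lists moved less evenly. Of 22 tested cytochrome P450 genes 4 were lower (median −0.54), and the near-identical Cyp2c and Cyp2d copies make single members uncertain. Cyp2c69 had 2.32 and 1.46 CPM in cycling cells, against 26.1 and 67.2 CPM in non-cycling cells (−4.53 ± 0.49, adjusted p = 0.000762), with reads in 37 of 84 and 41 of 94 non-cycling cells. In replicate 2, 1 cell held 41.3% of its non-cycling reads. Its log2 fold change in the control lines was −0.19 ± 0.72 (edgeR adjusted p = 0.929). Cyp2d26 had 387 and 317 CPM in cycling cells, against 832 and 898 CPM in non-cycling cells (−1.31 ± 0.11), and Cyp2c70 had a log2 fold change of −1.11 ± 0.13. Of 16 genes of gluconeogenesis and glycogen 3 were lower (median −0.42). Fbp1, the fructose bisphosphatase of gluconeogenesis, had 1460 and 1160 CPM in cycling cells, against 2070 and 2230 CPM in non-cycling cells (−0.73 ± 0.10). Slc37a4, the glucose 6-phosphate transporter, and Ppp1r3b, a glycogen-targeting subunit, had log2 fold changes of −0.69 ± 0.13 and −0.60 ± 0.12.

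Amino acid and urea genes were lower in 8 of 22 cases (median −0.46). Bhmt, of the methionine cycle, had 447 and 432 CPM in cycling cells, against 723 and 772 CPM in non-cycling cells (−0.77 ± 0.09, adjusted p = 0.000924). Gnmt, a methyltransferase that consumes S-adenosylmethionine, had 751 and 823 CPM in cycling cells, against 1230 and 1230 CPM in non-cycling cells (−0.64 ± 0.08), and Hpd, of tyrosine breakdown, had 172 and 239 CPM, against 344 and 371 CPM (−0.82 ± 0.11). Each had both cycling sums below the non-cycling ones. Bile acid genes were lower in 5 of 19 cases (median −0.71). Slc10a1, the bile acid uptake carrier, had 161 and 194 CPM in cycling cells, against 296 and 368 CPM in non-cycling cells (−0.90 ± 0.10). Hsd3b7, an enzyme of bile acid synthesis, had a log2 fold change of −1.03 ± 0.14. Cyp7a1, the rate-limiting enzyme of that synthesis, had 6.78 and 14.2 CPM in cycling cells, against 39.2 and 33.8 CPM in non-cycling cells (−1.86 ± 0.35, adjusted p = 0.0162).

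Fatty acid oxidation genes were lower in 7 of 20 cases, and all 20 had a negative log2 fold change (median −0.41, and −0.15 by library totals alone). The median of all genes tested was also negative on the TMM scale, at −0.08. Acaa2, a mitochondrial thiolase, had a log2 fold change of −0.59 ± 0.08. Lipid synthesis did not share the pattern of fatty acid oxidation, with a median of 0.04. Of its 20 genes 1 was higher and 2 were lower, against 4.20% and 2.56% of all genes. Scd1, a fatty acid desaturase, had 257 and 310 CPM in cycling cells, against 195 and 187 CPM in non-cycling cells (0.56 ± 0.11, adjusted p = 0.0216). Pemt, which makes phosphatidylcholine, had 319 and 390 CPM in cycling cells, against 566 and 656 CPM in non-cycling cells (−0.79 ± 0.09), and Insig1, a brake on sterol synthesis, had a log2 fold change of −0.42 ± 0.08.

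Glycolysis (0 higher and 2 lower of 22, median −0.25) and oxidative phosphorylation (0 higher and 4 lower of 27, median −0.17) moved little, and both medians were above 0 by library totals alone, at 0.003 and 0.08. Bnip3, a hypoxia-inducible mitophagy receptor, had a log2 fold change of −0.50 ± 0.11. Slc2a2, the hepatic glucose transporter, had 49.1 and 46.5 CPM in cycling cells, against 73.1 and 65.5 CPM in non-cycling cells, and did not pass (adjusted p = 0.12). Ndufa4, Ndufa1 and Sdhb, of the respiratory chain, had log2 fold changes of −0.37 ± 0.08, −0.37 ± 0.08 and −0.38 ± 0.09.

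**Figure D3:**
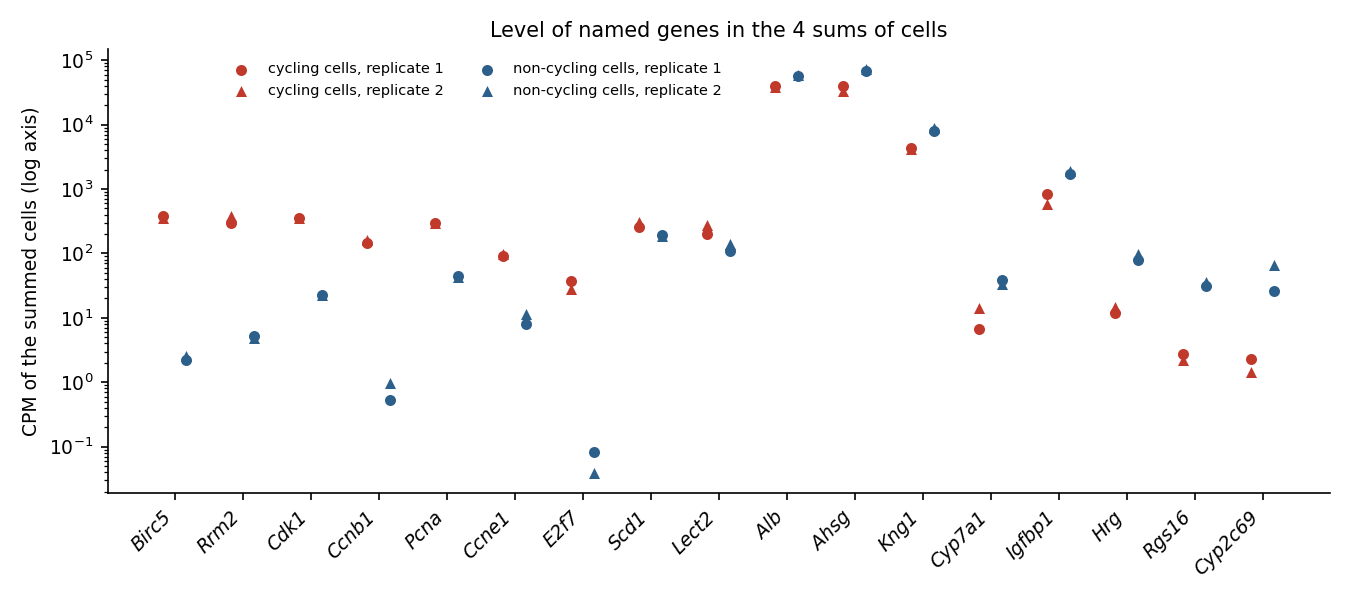
CPM (log axis) of named genes in the 4 sums, cycling cells in red left of non-cycling cells in blue, circles for replicate 1 and triangles for replicate 2. For cell cycle genes the 2 colours lie far apart, with E2f7 at 36.9 and 27.8 CPM in cycling cells, against 0.0827 and 0.039 CPM in non-cycling cells, while Alb lies at 39900 and 38300 CPM in cycling cells, against 57800 and 59500 CPM in non-cycling cells.

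Fetal liver genes gave 2 higher and 2 lower of 17 tested (median −0.13, and 0.13 by library totals alone). Afp, alpha-fetoprotein, had 33800 and 33900 CPM in cycling cells, against 46300 and 47600 CPM in non-cycling cells (−0.47 ± 0.06, adjusted p = 0.00139), so the adult and the fetal serum protein were both lower. Grb10, an imprinted adaptor of growth signals, had 878 and 767 CPM in cycling cells, against 1210 and 1300 CPM in non-cycling cells (−0.61 ± 0.09). Hmga1, a chromatin protein of fetal cells, had 25.5 and 30.1 CPM in cycling cells, against 8.93 and 12.1 CPM in non-cycling cells (1.42 ± 0.29). Dlk1, a hepatoblast surface protein named after its values were seen, had 858 and 857 CPM in cycling cells, against 685 and 676 CPM in non-cycling cells (0.33 ± 0.08, adjusted p = 0.0439), and it lost that call without the insulin-rich cell. Igf2 and H19, also named afterwards, had log2 fold changes of −0.09 ± 0.07 and −0.13 ± 0.06 and did not pass.

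Of 23 liver transcription factors 2 were lower and 0 higher (median −0.04, and 0.22 by library totals alone). Ppara, the receptor that drives fatty acid oxidation, had 104 and 77.9 CPM in cycling cells, against 157 and 150 CPM in non-cycling cells (−0.77 ± 0.14, adjusted p = 0.0118). Creb3l3, a factor of the fasting response, had 116 and 95.5 CPM in cycling cells, against 149 and 165 CPM in non-cycling cells (−0.58 ± 0.14, adjusted p = 0.0481), and without the insulin-rich cell its adjusted p was 0.0529. Nr1h4, the bile acid receptor, had 27.6 and 23.8 CPM in cycling cells, against 39.7 and 44.5 CPM in non-cycling cells (adjusted p = 0.123).

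Of 15 periportal genes 0 were higher and 5 lower (median −0.69). Of 13 pericentral genes 1 was higher and 2 were lower (median 0.19), and that median was −0.24 with replicate 2 left out and −0.12 with all E17.5 libraries in 1 fit. Hsd17b13, a lipid droplet protein, had 438 and 355 CPM in cycling cells, against 634 and 661 CPM in non-cycling cells (−0.72 ± 0.11, adjusted p = 0.00423). Arg1, the arginase of the urea cycle, had a log2 fold change of −0.48 ± 0.11. Lect2, a secreted chemotactic protein that is a Wnt-responsive pericentral gene in the adult, had 199 and 274 CPM in cycling cells, against 111 and 138 CPM in non-cycling cells (0.91 ± 0.11, adjusted p = 0.00143). Slc13a3, a dicarboxylate carrier, had 106 and 97.7 CPM in cycling cells, against 183 and 213 CPM in non-cycling cells (−0.96 ± 0.13), and Cyp27a1, a sterol hydroxylase, had a log2 fold change of −0.74 ± 0.18. Etnppl, a periportal gene counted among the 5, lost its call without the insulin-rich cell.

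Acute phase and interferon genes gave 4 lower and 0 higher of 18 tested (median −0.33). Hp, the haemoglobin-binding haptoglobin, had 648 and 494 CPM in cycling cells, against 991 and 1080 CPM in non-cycling cells (−0.87 ± 0.12, adjusted p = 0.00318). Lbp, which binds bacterial lipopolysaccharide, and Fgl1, a fibrinogen-like hepatokine, had log2 fold changes of −0.77 ± 0.15 and −1.10 ± 0.21. Immediate early genes and ERK targets gave 3 lower of 20 (median −0.47). Jun had 246 and 169 CPM in cycling cells, against 355 and 283 CPM in non-cycling cells (−0.64 ± 0.10, adjusted p = 0.00695), and Junb had 59.5 and 35.6 CPM, against 111 and 141 CPM (−1.45 ± 0.24). Both encode AP-1 subunits, and their cycling sums lay below the non-cycling ones. Egr1, a zinc-finger factor induced by ERK, had a log2 fold change of −0.39 ± 0.09. In the control lines 1 of 18 tested genes of the list was higher and 0 lower (median 0.13). There Jun, Junb and Egr1 had log2 fold changes of 0.37 ± 0.12, 0.06 ± 0.19 and 0.19 ± 0.12, opposite in sign to wild type and not called (adjusted p = 0.112, 0.913 and 0.466).

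Neither Pard3 nor Yap1, the genes at the centre of the study, passed the test. Pard3, which encodes the PAR3 polarity scaffold, had 37.6 and 43.4 CPM in cycling cells, against 46.7 and 44.6 CPM in non-cycling cells (−0.18 ± 0.20, adjusted p = 0.748, and 0.08 by library totals alone). Both cycling sums were below the non-cycling ones, as held for 28.1% of all genes tested. Yap1, the Hippo pathway coactivator, had 120 and 99.7 CPM in cycling cells, against 87.4 and 81.1 CPM in non-cycling cells (0.38 ± 0.14, adjusted p = 0.171). Both cycling sums of Yap1 were above the non-cycling ones, as held for 22.9% of all genes tested. Yap1 was called higher under 2 of 16 alternatives, at 0.64 by library totals alone (adjusted p = 0.0303) and at 0.48 with cells thinned to 200000 reads (adjusted p = 0.023). Of 33 polarity and apical junction genes 1 was higher and 0 lower (median −0.09, and 0.17 by library totals alone), against 4.20% and 2.56% of all genes. The higher one was Pvrl1, a nectin of adherens junctions, with 228 and 172 CPM in cycling cells, against 142 and 127 CPM in non-cycling cells (0.56 ± 0.12, adjusted p = 0.0262). Ocln and Cdh1, which encode occludin and E-cadherin, had log2 fold changes of −0.90 ± 0.28 and −0.69 ± 0.21, with adjusted p of 0.111 and 0.112. Of 13 tested YAP targets (median −0.18, and 0.08 by library totals alone) only Birc5, which is also a passenger complex gene, was called. Gadd45b and Ajuba, next by adjusted p, had 0.288 and 0.398.

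Of 18 growth factor receptors and binding proteins 2 were lower and 0 higher (median −0.45). Igfbp1, an IGF-binding protein secreted by liver, had 824 and 578 CPM in cycling cells, against 1720 and 1890 CPM in non-cycling cells (−1.38 ± 0.14, adjusted p = 0.000504). Igfbp2, which encodes another IGF-binding protein, had 16.1 and 19.9 CPM in cycling cells, against 55.3 and 96.1 CPM in non-cycling cells (−2.03 ± 0.21, adjusted p = 0.000617). Both had wide gaps between the groups. Ghr, the growth hormone receptor, had 225 and 209 CPM in cycling cells, against 285 and 277 CPM in non-cycling cells (adjusted p = 0.0623). Among 18 stress genes 1 was higher and 1 lower (median −0.23, and 0.03 by library totals alone), against 4.20% and 2.56% of all genes. Hsp90aa1, a cytosolic chaperone, had 178 and 210 CPM in cycling cells, against 101 and 96.4 CPM in non-cycling cells (0.97 ± 0.13, adjusted p = 0.00223), and Hspa5, the chaperone of the endoplasmic reticulum, had 515 and 580 CPM, against 701 and 774 CPM (−0.43 ± 0.08, adjusted p = 0.0152). Calr, another endoplasmic reticulum chaperone, had 293 and 317 CPM in cycling cells, against 381 and 398 CPM in non-cycling cells (adjusted p = 0.0581).

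The remaining largest falls were genes of low level. Rgs16, a regulator of G protein signalling, had 2.71 and 2.25 CPM in cycling cells, against 31.1 and 35.4 CPM in non-cycling cells (−3.75 ± 0.35, adjusted p = 0.000328). Lrg1, a secreted leucine-rich glycoprotein, had 4.17 and 1.26 CPM in cycling cells, against 16.6 and 20.9 CPM in non-cycling cells (−2.97 ± 0.56). Nrg4, a secreted ErbB ligand, had 1.26 and 2.85 CPM in cycling cells, against 13.9 and 11.4 CPM in non-cycling cells (−2.67 ± 0.56). Nrg4 was read in 1 of 15 and 5 of 18 cycling cells and in 33 of 84 and 38 of 94 non-cycling cells, so a few cells set its cycling level. Ticam1, a Toll-like receptor adaptor, had 1.45 and 4.37 CPM in cycling cells, against 12.0 and 16.7 CPM in non-cycling cells (−2.44 ± 0.49). Csf1r, the receptor of macrophage growth factor, had 11.2 and 1.52 CPM in cycling cells, against 29.8 and 17.0 CPM in non-cycling cells (−2.34 ± 0.51, adjusted p = 0.031).

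Csf1r belongs to the list of 16 macrophage and myeloid markers measured. That list summed to 22 and 18.4 CPM in cycling cells, against 39.8 and 30.2 CPM in non-cycling cells. Csf1r made up much of that difference. Without it the list summed to 9.95 and 16.7 CPM in cycling cells, against 12.2 and 14.9 CPM in non-cycling cells, lower in replicate 1 and higher in replicate 2. In the smaller cycling sums 5 and 4 of the 16 genes had no read, against 0 and 1 in the non-cycling sums, and these counts move with depth. Ptprc, the defining leukocyte gene, was at 0 and 0 CPM in cycling cells, against 0.03832 and 0.05285 CPM in non-cycling cells. Csf1r reads came from 5 of 15 and 3 of 18 cycling cells, against 40 of 84 and 44 of 94 non-cycling cells. The other lists were low in both classes. Erythroid markers summed to 59.7 and 39.1 CPM in cycling cells, against 52.8 and 38 CPM in non-cycling cells. Endothelial markers summed to 44.8 and 26.7 CPM in cycling cells, against 33.1 and 31.3 CPM in non-cycling cells. Stellate and mesenchymal markers summed to 33.3 and 51 CPM in cycling cells, against 26.1 and 24.4 CPM in non-cycling cells. Most of that sum was 1 gene, Reln, with 32.15 and 47.65 CPM in cycling cells, against 23.11 and 21.79 CPM in non-cycling cells. Stab1 likewise held 35.88 and 16.55 CPM of the endothelial sums in cycling cells, and Tfrc 14.83 and 29.4 CPM of the erythroid sums. In non-cycling cells Stab1 held 25.37 and 22.78 CPM and Tfrc 19.87 and 21.69 CPM. Cholangiocyte markers summed to 31.7 and 21.3 CPM in cycling cells, against 18.1 and 30.7 CPM in non-cycling cells, with Krt19 at 0 in both classes. Megakaryocyte and lymphoid markers summed to 0.739 to 2.11 CPM in all 4 sums. Without the cells marked by other lineages 507 genes were higher and 276 lower in cycling cells.

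Single cells were also counted by whether they had at least 10 reads of a gene. Rrm2 had at least 10 reads in 14 of 15 and 18 of 18 cycling cells, against 5 of 84 and 7 of 94 non-cycling cells. Ccnb1 had that many in 10 of 15 and 15 of 18 cycling cells, against 0 of 84 and 1 of 94 non-cycling cells. Plk1, a mitotic kinase, reached it in 8 of 15 and 13 of 18 cycling cells and in 0 of 84 and 0 of 94 non-cycling cells. Cdc6, a licensing factor, reached it in 7 of 15 and 11 of 18 cycling cells and in 2 of 84 and 1 of 94 non-cycling cells. The number of cells past this mark thus varied from gene to gene, within mitotic as within replicative genes. Mcm6 had at least 10 reads in all cycling cells and in 78 of 84 and 85 of 94 non-cycling cells. Cdk1 had that many in all cycling cells and in 39 of 84 and 40 of 94 non-cycling cells. These counts move with depth and with the level of the gene. At 200000 reads a cell Ccnb1 had a read in 12 of 14 and 15 of 18 cycling cells, against 7 of 82 and 5 of 91 non-cycling cells.

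The summed level of a list shows the same range cell by cell. Spindle and kinetochore genes summed to medians of 2137 and 2469 CPM in cycling cells, with a range of 234.1 to 4127 CPM in replicate 1 and 486.9 to 3923 CPM in replicate 2. Non-cycling cells had medians of 70.1 and 75.1 CPM and reached 409.3 and 424.7 CPM. The 50 cells left out by the rule had medians of 104.1 and 139.2 CPM, close to the non-cycling cells, with single cells up to 2664 and 1519 CPM. Of these cells 20 in replicate 1 and 18 in replicate 2 had 10 reads of Mki67 alone. Secreted protein genes summed to medians of 198330 and 185654 CPM in cycling cells, 227867 and 231927 CPM in the cells left out and 250665 and 253928 CPM in non-cycling cells. The ranges of this sum overlapped, from 128842 to 265423 CPM in cycling cells of replicate 1, against 143586 to 375129 CPM in non-cycling cells.

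**Figure D4:**
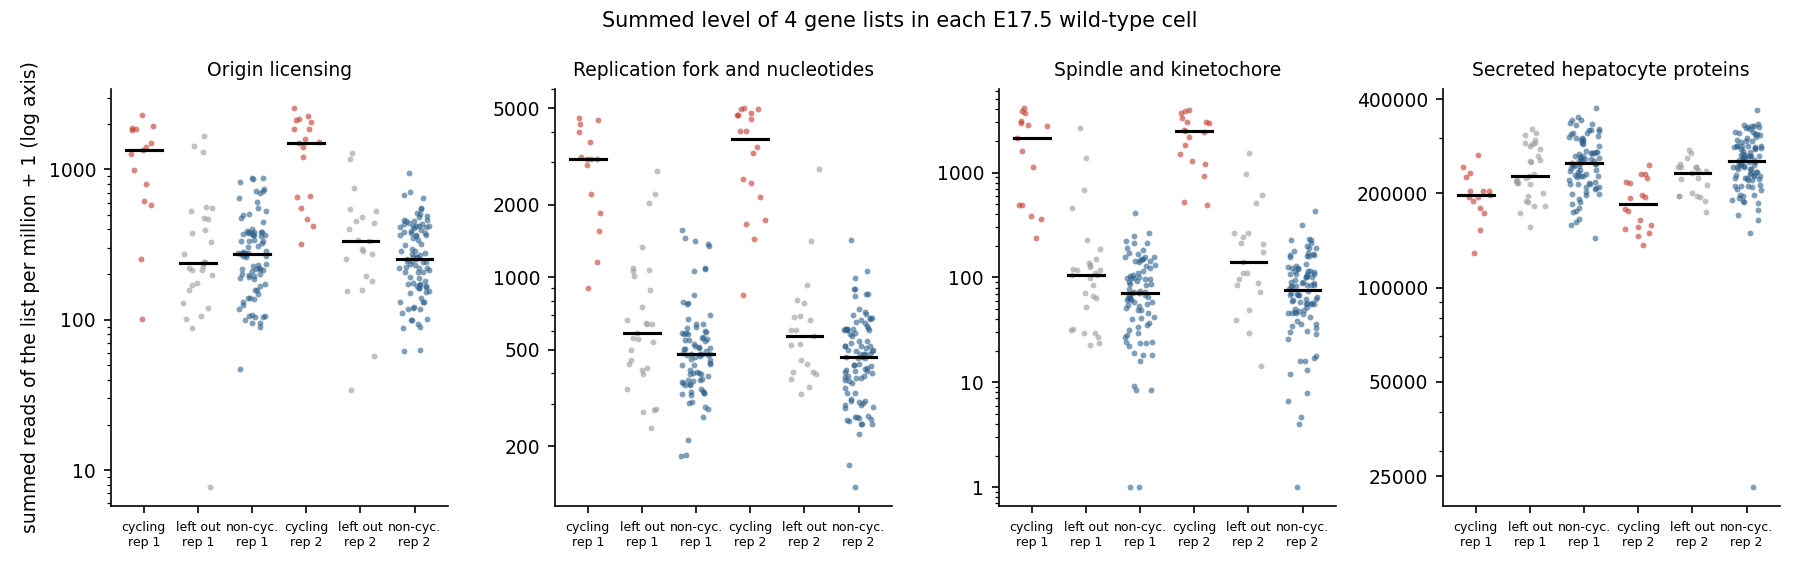
Summed CPM + 1 of 4 gene lists (log axes) in each E17.5 wild-type cell, 1 point per cell, with a bar at the median, in cycling, left-out and non-cycling cells of each replicate. Spindle genes separate most cycling cells from the other classes, while secreted protein sums overlap, with 1 non-cycling cell of replicate 2 far below at 23040.6 CPM.

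The E17.5 control lines gave the comparison in libraries that the fit above had not used. Their cells were classed by the same rule, so the rise of co-expressed cell cycle genes follows in part from the selection there too. They held 37 cycling, 325 non-cycling and 67 left-out cells, and 6 of the 8 libraries had at least 3 cycling cells and entered the fit. Cells with reads for at least 50% of the markers of another lineage, mostly erythroid, made up 1 of 8 to 2 of 3 cycling cells and 0 to 63.2% of non-cycling cells of a fitted library, and their part was not tested. Of 10753 genes tested 319 were higher (2.97%) and 102 lower (0.949%). Both sets called 265 genes higher, 48.3% of the wild-type calls and 83.1% of the control-line calls. Both called 52 lower, 15.6% of the wild-type calls and 51% of the control-line calls. Of the 502 genes higher in wild type and tested in the control lines 470 were above 0 and 0 were called lower there. Of 327 genes lower in wild type 318 were below 0 and 0 were called higher. The shares of all genes above and below 0 in the control lines are not given, so these counts of signs have no background beside them.

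By list, the control lines called all 34 tested spindle genes, all 13 cytokinesis genes and 20 of 22 mitotic kinases and cyclins higher. The selection on Mki67 and Top2a bears on these calls as well. Fewer replication genes were called there, 13 of 29 at the fork and 4 of 16 of licensing. Of 15 tested genes of G1 entry 1 was higher in these lines, with a median of 0.28. Ccne1 and E2f8 had log2 fold changes of 1.55 ± 0.75 and 2.95 ± 0.91 in them and were not called (edgeR adjusted p = 0.318 and 0.109). Birc5 had a log2 fold change of 5.88 ± 0.32 (edgeR adjusted p = 3.13e-07) and Pcna one of 1.42 ± 0.34 (adjusted p = 0.0388). Secreted proteins were lower in 5 of 24 cases with a median of −0.33. Alb had a log2 fold change of −0.29 ± 0.07 (adjusted p = 0.0289) and Ahsg one of −0.39 ± 0.09 (adjusted p = 0.0369), while Afp, with −0.20 ± 0.05, did not pass (adjusted p = 0.0589). Scd1 had −0.77 ± 0.32 in these lines (adjusted p = 0.245), the opposite sign to wild type, and Lect2 had 0.21 ± 0.26 (adjusted p = 0.743). A test of the difference between the sets, as an interaction of class and line, called 0 of 11188 genes higher in wild type and 1 lower, Rgs16, and 282 had an unadjusted p below 0.05. The sets differ in strain and transgene, which cannot be told apart.

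The share of cells called cycling at E17.5 was 11.7% in replicate 1 (15 of 128, exact 95% interval 6.71 to 18.6%) and 18 of 133 cells in replicate 2 (8.22 to 20.5%). In the 8 control-line libraries of the same age it was 1.79 to 17.0%, with a median of 7.45%. Through gestation in B6C3F1 WT it was 80.4% and 87.8% at E11.5, 59.6% and 68.9% at E12.5, 61.9% and 40.0% at E13.5, and 33.3% and 56.4% at E14.5. It was 25.6%, 27.9% and 38.1% at E15.5, 4.76%, 16.7% and 20.6% at E16.5, and 0% and 7.46% at E19.5. A count of 0 among 51 cells allows up to 6.98%. The E15.5 and E16.5 cells had median depths of 114249 to 185866 reads, well below the other ages, and the part of depth in their shares was not tested. With 2 or 3 libraries an age no test was made, and intervals cover counting error only. When 10 reads of either gene sufficed, the share was 34.4% and 29.3% at E17.5 and 23.5% and 37.3% at E19.5. The E19.5 cells had median depths of 1030303 and 1043232 reads, against 637640.5 and 605013 at E17.5. A fixed count of 10 reads is a lower bar at greater depth, and the part of this was not tested. With at least 20 CPM of both genes required, the share was 10.2% and 15% at E17.5 and 0% and 2.99% at E19.5. Under the rule of both genes, the E17.5 values lay below every library of E11.5 to E15.5 and within the range of E16.5.

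**Figure D5:**
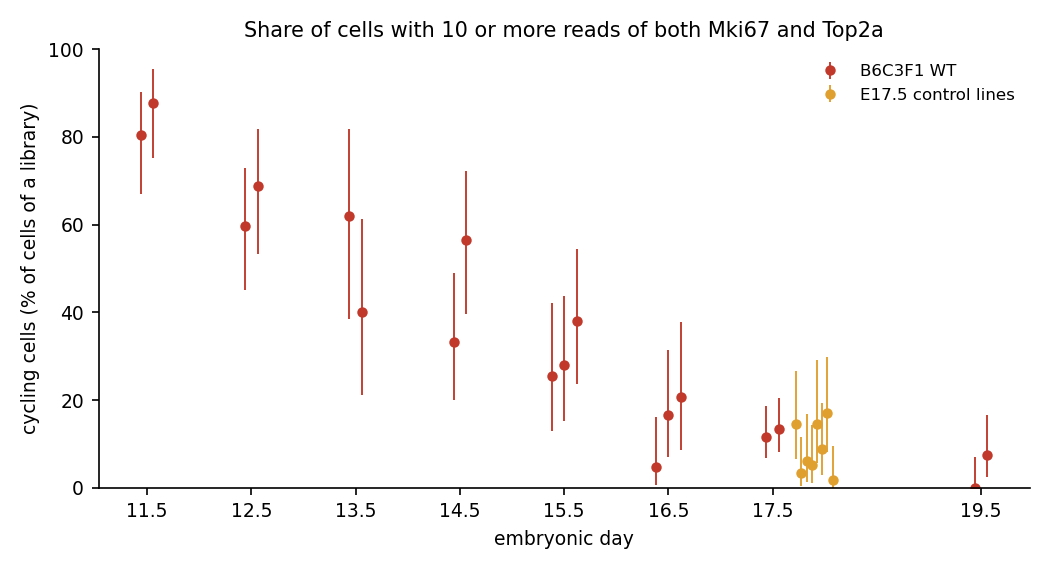
Percent of cells of a library with at least 10 reads of both Mki67 and Top2a by embryonic day, B6C3F1 WT in red and E17.5 control lines in orange beside them, with exact 95% binomial intervals. Points lie at 80.4% and 87.8% at E11.5 and between 0 and 20.6% from E16.5 on in B6C3F1 WT.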

How the data were processed

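Counts were the authors' deposited values: whole-number reads per gene and cell, 40818 genes in 4264 cells, from Smart-seq3xpress libraries per the labels. The submitters' processing notes list FastQC 0.11.9, Trimmomatic 0.39, HISAT2 2.1.0 and the builds GRCm38 and mm10. How reads were counted (tool, annotation, strand, molecular identifiers) is not stated in these sources, so reads need not be single molecules. Spike-in rows (92) and unnamed rows (6, 0.000622% of reads) were left out. The libraries of replicates 1 and 2 held 81363788 and 83485848 reads.

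Reads were summed per library and class and fitted with edgeR 4.0.16 (R 4.3.3) as library plus class, with filterByExpr, TMM, trended robust dispersion and Benjamini-Hochberg adjustment over all genes tested. The library is a replicate block because both classes of a pair come from the same library. The fit had 1 residual degree of freedom and took most of its spread from other genes (median prior 7.18). Control lines were fitted the same way. Mki67 and Top2a, on which the cells were selected, were not tested. Doublets were not called, no cell columns were identical, and the files name cells by number, so shared barcodes could not be counted. Other-lineage cells had reads for at least 50% of the markers of another cell type.

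The cells, gene lists and alternatives were chosen with earlier results of these data known. Genes are named by rule: Mki67, Top2a, Alb, Afp, Pard3 and Yap1, the 8 largest rises and 8 largest falls among called genes with at least 10 CPM in 1 class of both libraries and 1 direction (predicted, mitochondrial and ribosomal genes excepted), and up to 3 members a list by adjusted p, of which some are not reported here. Promoters are from RefSeq. Alternatives were DESeq2 1.42.0, scaling, filter, block, thresholds, thinning, left-out cells and left-out replicates. The one without the insulin-rich cell (under 5% hepatocyte marker reads) was added after seeing the data. Exact intervals are Clopper-Pearson from scipy 1.17.1.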

Additional observations from a re-analysis of the deposited data

Results flagged for a closer look

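Rgs16, the regulator of G protein signalling, is listed because the difference between cycling and non-cycling cells was not the same in wild type and in the control lines. The log2 fold change in wild type minus that in the control lines was −3.21 ± 0.38 (edgeR interaction of class and line, adjusted p = 0.0124). As CPM of plain totals, Rgs16 had 2.9 and 2.51 in cycling cells of the wild-type replicates, against 28.8 and 31.9 in non-cycling cells. In the 5 Foxa3Cre libraries with at least 3 cycling cells it had 52.9, 23.4, 48.6, 49.5 and 81.6 CPM in cycling cells, against 71.7, 50.7, 59.8, 56.3 and 66.4 CPM in non-cycling cells of the same libraries. In the AlfpCre Pard3WT library it had 12.4 CPM in cycling cells, from 81 reads, and was higher in non-cycling cells, from 273 reads. Cycling cells were lower in 2 of 2 wild-type libraries and in 5 of 6 control-line libraries, where the log2 fold change was −0.49 ± 0.17 (adjusted p = 0.164). Strain, transgene and library differ together between the sets and cannot be told apart.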

How the results depend on the processing

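The count of genes higher in cycling cells (549) was within 1.5 times under 11 of 16 alternatives and that of lower genes (334) under 9. Higher genes were 863 by library totals alone, 209 with all E17.5 libraries in 1 fit and 340 when either gene made a cell cycling. Lower genes were 217 with RLE size factors, 129 by library totals alone, 94 with all E17.5 libraries in 1 fit, 637 with cells thinned to 200000 reads and 66 when either gene made a cell cycling. Leaving out replicate 1 or 2 gave 90 to 102 higher and 3 to 16 lower genes. Those fits have 1 pair, assumed to vary like the control lines. Without the replicate block 507 were higher and 254 lower. In the control lines 28 in place of 102 genes were lower without the block. The share of cycling cells kept within its interval at thresholds of 5 and 20 reads and 20 CPM, and was 34.4% and 29.3%, outside it, when either gene sufficed.

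Of 100 named genes called, 100 held under DESeq2, 90 under RLE, 84 by library totals alone, 88 without the block, 59 when either gene made a cell cycling and, of 98 testable, 58 in the joint fit, 31 without replicate 1 and 29 without replicate 2. Pard3, not called, turned to 0.081 by library totals alone. The cause of these moves was not tested. Only 33 cells and 1 residual degree of freedom stand behind the calls, and genes of a few reads are the least certain.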

Other observations

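The insulin-rich cell of replicate 2, classed as non-cycling, had 10079 detected genes. Ins2 held 34.9% and Ins1 16.6% of its reads. Iapp (islet amyloid polypeptide) held 3.19%, and the hormone genes Sst, Ppy and Gcg held 0.625%, 0.497% and 0.474%. Alb and Afp held 0.464% and 0.536%. It carried 96.5% of all Ins2 reads of both libraries, while 123 of the other 260 cells had a read of Ins2, at up to 819 CPM. Iapp was called lower in cycling cells (log2 fold change −6.16 ± 0.32, edgeR adjusted p = 9.63e-06), with 0 and 45 reads in cycling cells of replicates 1 and 2, against 81 and 10812 in non-cycling cells. That 1 cell held 10650 of the 10812 reads (98.5%), and without it Iapp, Gcg, Ppy and Sst were not called. These genes were chosen after their values were seen.

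In other called genes too, 1 cell could hold most of the reads of a sum. This was so (at least 50% of the reads of the higher class in a library) for 28 of 549 higher genes (5.1%) and 6 of 334 lower genes (1.8%). Of the genes called, 358 higher and 241 lower ones were in none of the 32 lists.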
